A study of Mus musculus with 21 samples.

Results

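The 31 genes described here act in meiotic prophase, and they were taken by name from a deposited table of 32643 mouse genes. Each of the 31 names matched 1 gene, and the genes lie on 15 chromosomes. They were measured by RNA sequencing of whole testes from 21 male mice at postnatal day 10, of a strain labelled 50% 129sv and 50% C57Bl6, 1 library per animal. The mice were either knockouts (KO) of FXRα, a nuclear receptor for bile acids encoded by Nr1h4, or wild type (WT). They received bisphenol A (BPA, a monomer of plastics with weak estrogenic activity), stigmasterol (a plant sterol) or vehicle. The groups were KO BPA (animals T25, T83 and T117), KO stigmasterol (T10, T15 and T93), KO vehicle (T1, T90 and T110), WT BPA (T60, T61, T74 and T75), WT stigmasterol (T78, T98, T118 and T119) and WT vehicle (T66, T71, T79 and T81). The sources used here do not name doses, litters or the deleted part of Nr1h4. The tests judged differences against the spread between these animals only and treated each animal as independent. Where animals share a litter, the p-values may be too small.

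In meiotic prophase the germ cell breaks its DNA on purpose, pairs the homologous chromosomes and repairs the breaks by recombination between them. Sister chromatids are held by meiosis-specific cohesins and organised along a protein axis, and the synaptonemal complex zips the axes of the homologs together. In the mouse testis the first germ cells enter this phase in the second week after birth, so a testis at this age holds Sertoli cells, spermatogonia and a first wave of early spermatocytes. A whole testis is a mixture, and in such bulk samples fewer cells of a type and less RNA per cell cannot be told apart.

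Libraries held 35459523 to 61498855 counted reads, and 20254 genes, all 31 meiotic prophase genes among them, passed the filter on low counts. The lowest count of any of the 31 in any library was 25 reads. Levels are reads of a gene per 1000000 reads of its library (CPM) after TMM scaling. Nr1h4 itself was low and overlapped between genotypes, with a lowest, median and highest value of 0.172, 0.308 and 0.492 CPM in the KO and 0.241, 0.553 and 0.868 CPM in the WT animals (7 to 40 reads). Its log2 fold change, KO over WT averaged over treatments, was -0.78 ± 0.229 (SE, edgeR adjusted p = 0.0303), and it cannot check each animal's label. Germ cell and Sertoli cell markers were present in all libraries, with 188 to 268 CPM of the germ cell helicase Ddx4 in KO and 129 to 252 CPM in WT animals. Cdh16, a cadherin of epididymal epithelium, was at 10 CPM or more in 9 libraries (KO animals T1, T10, T83, T93, T110 and T117 and WT animals T60, T75 and T81), and Alb or Car3, abundant in liver and fat, were at 10 CPM or more in 4 (KO animals T25 and T117 and WT animals T61 and T75).

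RefSeq (GRCm38.p6) promoter windows were at hand for 26 of the 31 genes. The 250 bases before the start of 6 of them are printed on the gene's strand, 5′ to 3′, with motif matches in capitals, so that the kinds of match found can be seen. Sycp1, Sycp3 and Tex12 build the synaptonemal complex and hold the E-box CACGTG. Hormad2, an axis protein, holds CNCCTCAG (shown on its reverse strand), a motif described for the meiotic inducer STRA8. Tex12 and, on its reverse strand, Tex14, a protein of the bridges between germ cells, hold GGCGGGAA, a form of the E2F site. Psmc3ip, the gene that passed the test between genotypes, holds none of them, and neither do most of the 26 genes. In order, the windows are chr3:102936101-102936350 (minus strand), chr10:88459337-88459586 (plus), chr9:50561269-50561518 (minus), chr11:4441083-4441332 (minus), chr11:87404815-87405064 (plus) and chr11:101095436-101095685 (minus).
Sycp1: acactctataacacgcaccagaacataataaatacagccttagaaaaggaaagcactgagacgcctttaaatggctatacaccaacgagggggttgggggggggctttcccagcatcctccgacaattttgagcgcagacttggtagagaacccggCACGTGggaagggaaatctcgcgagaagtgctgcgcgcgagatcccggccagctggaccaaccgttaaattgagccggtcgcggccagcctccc
Sycp3: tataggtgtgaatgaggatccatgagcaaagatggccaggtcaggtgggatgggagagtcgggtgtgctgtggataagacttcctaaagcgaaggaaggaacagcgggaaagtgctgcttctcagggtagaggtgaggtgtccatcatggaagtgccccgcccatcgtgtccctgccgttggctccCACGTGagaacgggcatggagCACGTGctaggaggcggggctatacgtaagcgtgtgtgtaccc
Tex12: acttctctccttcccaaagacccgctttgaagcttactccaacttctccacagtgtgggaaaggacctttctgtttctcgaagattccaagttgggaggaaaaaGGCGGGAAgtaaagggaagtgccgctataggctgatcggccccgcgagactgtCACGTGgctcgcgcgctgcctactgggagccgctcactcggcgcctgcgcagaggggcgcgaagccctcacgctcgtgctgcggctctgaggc
Hormad2: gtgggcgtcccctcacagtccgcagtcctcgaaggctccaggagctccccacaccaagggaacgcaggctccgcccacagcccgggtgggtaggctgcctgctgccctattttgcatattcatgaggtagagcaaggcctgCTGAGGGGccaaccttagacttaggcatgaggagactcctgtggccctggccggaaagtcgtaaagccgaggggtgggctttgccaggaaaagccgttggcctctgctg
Tex14: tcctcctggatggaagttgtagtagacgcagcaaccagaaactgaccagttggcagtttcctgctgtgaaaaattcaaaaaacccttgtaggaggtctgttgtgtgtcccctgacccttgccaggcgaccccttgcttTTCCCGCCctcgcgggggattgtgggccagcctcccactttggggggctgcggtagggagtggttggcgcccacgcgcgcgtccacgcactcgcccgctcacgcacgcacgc
Psmc3ip: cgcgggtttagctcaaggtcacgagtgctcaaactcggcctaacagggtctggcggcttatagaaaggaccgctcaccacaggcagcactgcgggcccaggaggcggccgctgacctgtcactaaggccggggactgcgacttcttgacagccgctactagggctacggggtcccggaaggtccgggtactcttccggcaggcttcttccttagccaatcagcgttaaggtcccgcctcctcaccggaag
The E-box of Sycp1 starts 94 bases before the annotated start, that of Tex12 93 bases before it, and the pair in Sycp3 64 and 43 bases before it.

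Searched on both strands over the same 250 bases, the E-box was in 22.6% of the 31 windows that belong to these genes (some genes have more than 1), against 6.02% of all 32851 RefSeq windows. The genes with it were Hormad1, Stag3, Syce2, Sycp1, Sycp3 and Tex12. GGCGGGAA (Hormad1, Msh5, Prdm9, Syce2, Tex12 and Tex14) was in 22.6% of the 31 windows, against 1.86% of all, and CNCCTCAG (Hormad2, Msh5, Prdm9 and Syce2) in 12.9%, against 6.42%. The cAMP response element TGACGTCA was in 0 of the 31 windows and in 1.55% of all. No 2 matches overlapped in the windows printed. The median number of CG pairs per window was 13 for these genes and 6 over all windows. These are matches of letters, not sites shown to be bound.

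Apart from Psmc3ip, with 58.2% of its variance between groups, the 31 genes varied more between animals of a group than between groups. Most of the 31 went up and down together. The highest level exceeded the lowest by over 5-fold for 13 genes, by 2- to 5-fold for 14 and by under 2-fold for 4 (Mlh3, Trip13, Mnd1 and Psmc3ip). WT stigmasterol animal T98 had the highest level of 20 genes, and the lowest level of 26 genes lay in WT vehicle animal T81 or WT stigmasterol animal T78. The extremes were thus both in WT animals, and T98 and T78 were in the same group. The median SD of log2 CPM between animals of 1 group was 0.629 for the 31 genes, against 0.218 over all genes tested. The SD of 18 of the 31 was above the 90th percentile of all genes tested. The groups held a median of 23.5% of the variance of these genes, against 33.6% over all genes tested, and 28 of the 31 were under that all-gene median.

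**Figure D1:**
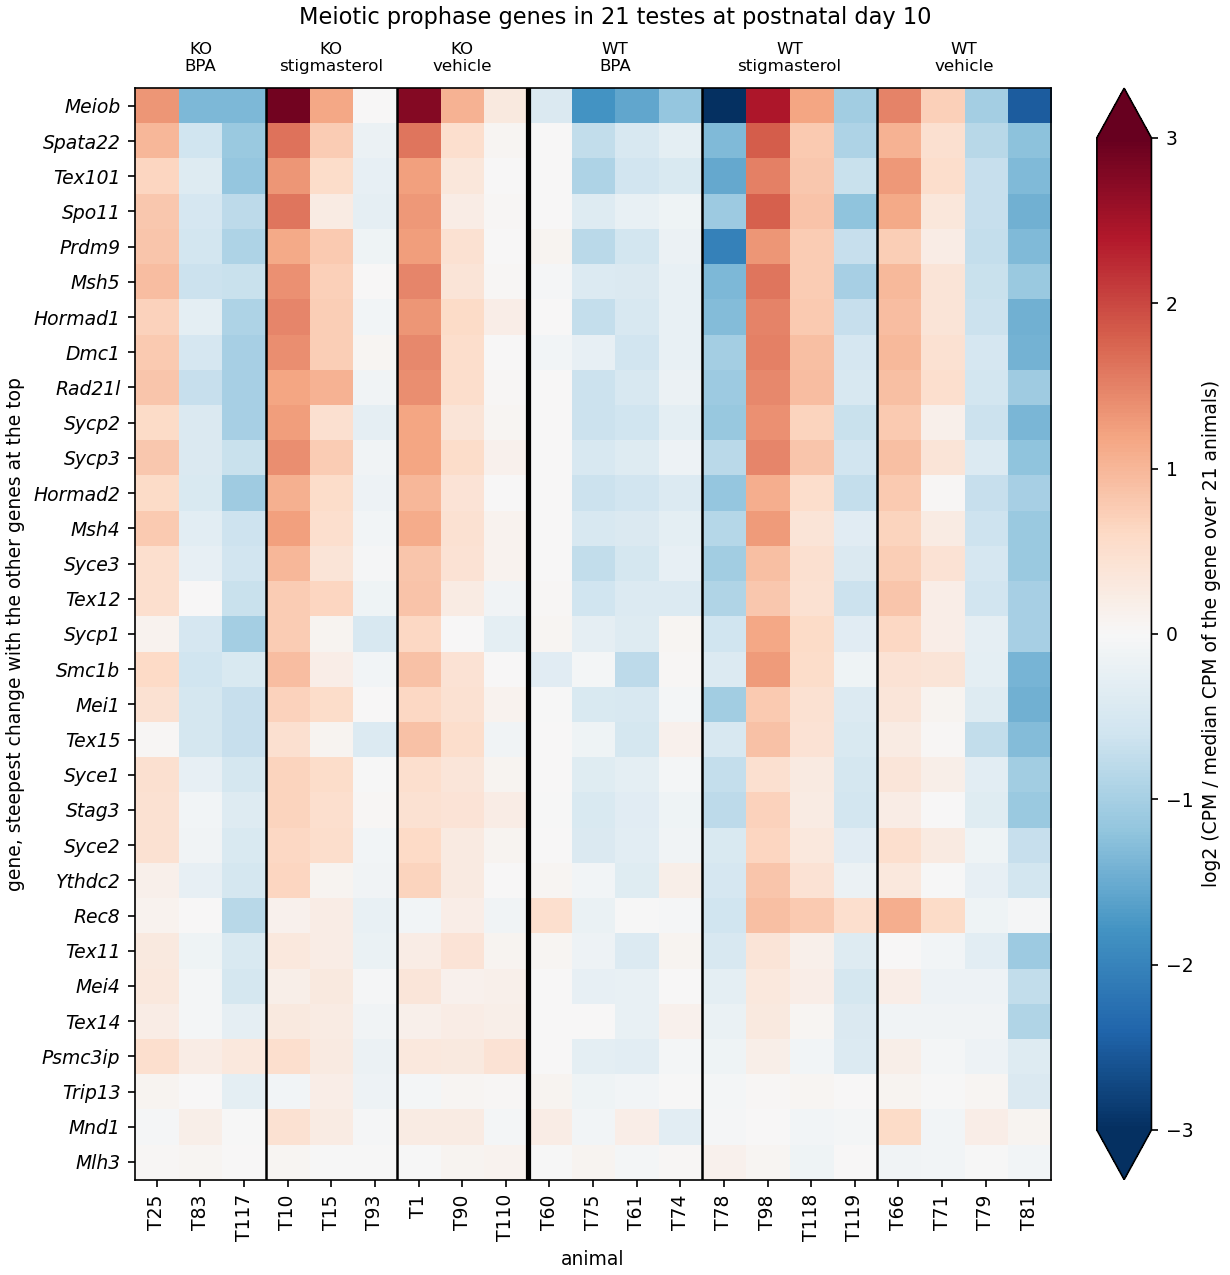
Level of each of the 31 genes (rows) in each of the 21 animals (columns, by group) as log2 of CPM over the gene's median, with genes ordered from the steepest to the flattest change. Animals of 1 group differ from red to blue down most of the rows, T98 is highest for 20 genes and T81 lowest for 19, and the bottom rows, with Mlh3 last, are nearly white.

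The steepness of each gene was described by the slope of its group-centred log2 CPM on the mean of the other 30, over the 21 animals, where a slope above 1 means a larger swing than theirs. Slopes ran between 2.81 for Meiob and -0.03 for Mlh3. They were above 1 for 15 genes and under 0.5 for 6. The correlation with the other genes over these animals was at least 0.9 for 24 of the 31. These values share libraries and scaling and are given as a description.

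Among the synaptonemal complex genes the highest level exceeded the lowest by 2.5-fold (Syce2) to 6.64-fold (Sycp2). Sycp3, a lateral element protein, had 80.4, 34.2 and 28.9 CPM in KO BPA animals T25, T83 and T117. It had 121, 77.9 and 43.1 CPM in KO animals with stigmasterol (T10, T15 and T93), and 105, 67.7 and 50.3 CPM with vehicle (T1, T90 and T110). Each KO group thus held at least a 2-fold range. The WT values of Sycp3 were 46.1, 35.3, 41.4 and 32.9 CPM with BPA (T60, T61, T74 and T75), 26.3, 128, 81.8 and 31.1 CPM with stigmasterol (T78, T98, T118 and T119), and 86.1, 60.3, 34.5 and 20.05 CPM with vehicle (T66, T71, T79 and T81). The groups overlapped in most pairs, but all KO vehicle animals lay above all WT BPA animals. Sycp1, the transverse filament that spans the complex, Sycp2, the partner of SYCP3, and the central element genes Syce1, Syce2, Syce3 and Tex12 had slopes between 0.67 (Syce2) and 1.38 (Sycp2), with 1.31 for Sycp3.

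Axis and cohesin genes had ranges of 3.51-fold (Stag3) to 7.52-fold (Hormad1). Hormad1 and Hormad2 encode axis proteins that monitor pairing, and they had slopes of 1.49 and 1.21. Smc1b, Rad21l and Stag3 encode cohesin subunits made in meiosis, with slopes of 0.97, 1.40 and 0.75. Rec8, the kleisin that keeps sister chromatids together, followed the others least closely within this role (correlation 0.799, slope 0.62). The KO values of Rec8 were 35.9, 33.5 and 18.7 CPM in BPA, 36.5, 39.0 and 28.8 CPM in stigmasterol, and 31.9, 38.2 and 30.9 CPM in vehicle animals, in the order of animals given above. The WT values of Rec8 were 47.3, 33.1, 32.5 and 29.2 CPM in BPA, 22.0, 62.7, 58.0 and 47.2 CPM in stigmasterol, and 71.6, 50.2, 30.6 and 32.9 CPM in vehicle animals. No KO animal exceeded 39.0 CPM, and 6 of the 12 WT animals did.

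The genes for making double-strand breaks included some of the steepest. Spo11, the enzyme that cuts the DNA, lay between 2.74 CPM (T81) and 25.8 CPM (T98), a 9.42-fold range. Prdm9, the histone methyltransferase that marks where breaks form in the mouse, lay between 7.32 CPM (T78) and 74.5 CPM (T98), a 10.2-fold range. Mei1 and Mei4 are needed for the breaks. Mei1 spanned 4.68-fold, and Mei4 spanned only 2.13-fold, with 4.69 CPM in T81 and 10.0 CPM in T1.

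Strand exchange genes spread the widest among themselves. Meiob, a protein that binds single-stranded DNA at the breaks, had 11.3, 1.79 and 1.77 CPM in KO BPA, 33.5, 10.2 and 4.53 CPM in KO stigmasterol, and 30.4, 9.40 and 5.58 CPM in KO vehicle animals. It had 3.36, 1.54, 2.02 and 1.31 CPM in WT BPA, 0.507, 24.3, 10.3 and 2.21 CPM in WT stigmasterol, and 12.7, 7.47, 2.23 and 0.799 CPM in WT vehicle animals. That is a 66.2-fold range between KO stigmasterol animal T10 and WT stigmasterol animal T78, which rests on 25 to 1515 reads. Its partner Spata22 spanned 8.93-fold and the recombinase Dmc1 7.6-fold. Psmc3ip (HOP2) and Mnd1, which form the complex that helps DMC1 invade the homolog, spanned only 1.89-fold and 1.87-fold. Within this role the slopes thus ran between 2.81 for Meiob and 0.11 for Mnd1.

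Crossover and checkpoint genes fell into steep and flat ones. Msh4 and Msh5, partners that stabilise crossover intermediates, spanned 5.23-fold and 7.73-fold, while Mlh3, which acts late in crossing over, lay between 32.5 and 38.8 CPM, a 1.19-fold range. The level of Mlh3 averaged 36.1 ± 0.649 CPM in KO BPA, 35.6 ± 0.992 CPM in KO stigmasterol and 36.9 ± 1.67 CPM in KO vehicle animals (SD, n = 3 each). It averaged 35.6 ± 1.52 CPM in WT BPA, 36.0 ± 2.68 CPM in WT stigmasterol and 33.7 ± 1.08 CPM in WT vehicle animals (SD, n = 4 each). Mlh3 was highest in T78, the animal with the least Meiob. Trip13, the ATPase that removes HORMAD proteins from the axis, spanned 1.54-fold, and Tex11, an X-linked crossover gene, 2.80-fold.

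Of the remaining germ cell factors, Tex101, a surface protein of germ cells, spanned 8.33-fold, between 40.3 CPM in T78 and 335 CPM in T98. Tex15, needed for repair of the breaks, spanned 4.57-fold. Ythdc2, an RNA helicase needed to leave the mitotic programme, spanned 2.60-fold and Tex14 2.29-fold. Tex14 is also made in spermatogonia.

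**Figure D2:**
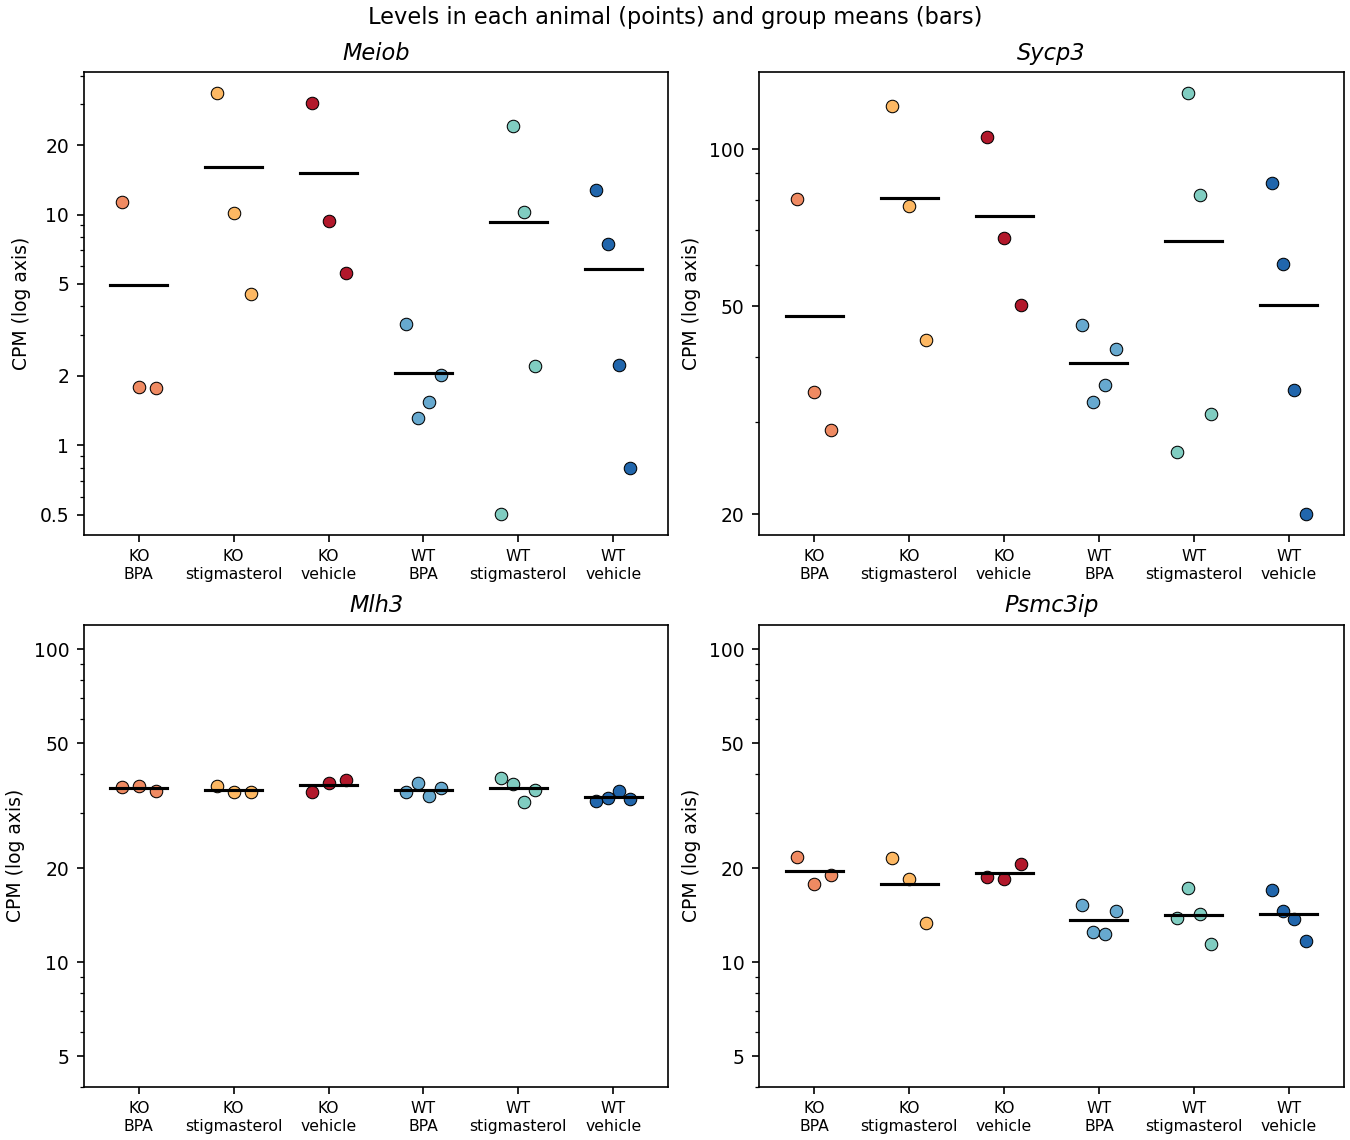
CPM on a log axis of Meiob, Sycp3, Mlh3 and Psmc3ip in each animal (points) with group means (bars). Meiob spans 66.2-fold and Sycp3 6.39-fold over the 21 animals, with the 4 WT BPA animals low and close together (1.31 to 3.36 CPM of Meiob), Mlh3 stays within 1.19-fold, and Psmc3ip is higher in 8 of the 9 KO animals than in any WT animal.

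To set levels of different genes side by side, CPM were divided by the length of the union of annotated exons in kb. In WT vehicle animals Tex101 was the highest at 136 ± 103 CPM per kb (SD, n = 4), followed by Stag3 at 53.6 ± 19.3, Sycp1 at 42.4 ± 18.5, Sycp3 at 39.8 ± 23.1 and Syce2 at 38.8 ± 13.1 CPM per kb. The lowest were Meiob at 3.23 ± 3.02, Spata22 at 3.01 ± 2.06, Msh4 at 1.98 ± 1.04 and Mei4 at 1.68 ± 0.426 CPM per kb. Genes of the synaptonemal complex and axis were thus mostly in the upper part of the order, and break, strand exchange and crossover genes mostly in the lower. Of the 30 pairs of neighbours in this order, 1 differed by more than the larger of their SDs, Psmc3ip (11.0 ± 1.73 CPM per kb) above Mnd1 (8.75 ± 1.81). Within animals 3 pairs kept their order in all 21, Tex101 above Stag3, Stag3 above Sycp1 and Psmc3ip above Mnd1. Tex101 and Stag3 were first and second in each of the 6 groups.

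The order depended on the length used. With the gene length of the deposited table Stag3 came first, Tex14 second and Tex101 after them, while Tex14 was 14th with the exon union. That length was under 50% of the exon union for 8 of the 31 genes, with 0.989 kb against 4.21 kb for Stag3 and 0.601 kb against 4.76 kb for Tex14, and within 10% of it for 11. All animals were of 1 age, so a level is not a time of onset. What the animals do give is which genes were lowest relative to their own maximum where the group of genes was low. For the 19 genes that were lowest in T81, this share in T81 restates the fold between their highest and lowest level. In T81, the animal with the lowest mean over the 31 genes, Meiob was at 2.4% of its highest level, Spo11 at 10.6%, Spata22 at 12.1%, Dmc1 at 13.2% and Hormad1 at 13.3%. There Mlh3 was at 85.9%, Mnd1 at 70.6%, Trip13 at 64.8% and Psmc3ip at 53.7% of their highest. Sycp3 was at 15.7% and Sycp1 at 22.6%.

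**Figure D3:**
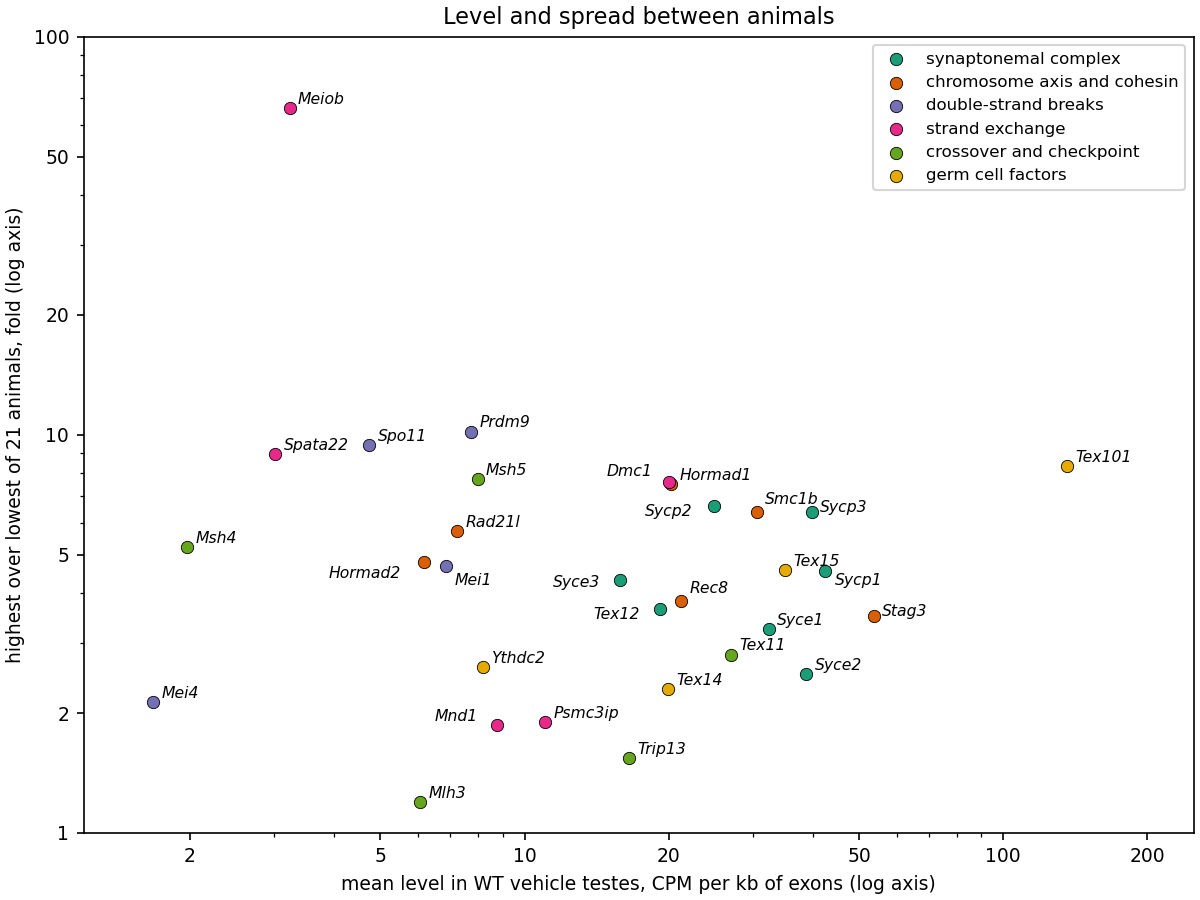
Mean level in WT vehicle animals in CPM per kb of exons (horizontal log axis) against the fold between the highest and the lowest of the 21 animals (vertical log axis), 1 point per gene, coloured by role. Meiob combines a low level with a 66.2-fold range, Tex101 the highest level with an 8.33-fold range, and Mlh3, Trip13, Mnd1 and Psmc3ip sit under 2-fold.

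The lists of other germ cell markers had a lower median spread between animals than the 31 genes. The summed level of the 31 was 1326 to 2656 CPM in KO BPA, 1795 to 3500 CPM in KO stigmasterol, 2074 to 3476 CPM in KO vehicle, 1511 to 2029 CPM in WT BPA, 1295 to 3975 CPM in WT stigmasterol and 974 to 2863 CPM in WT vehicle animals. Over the 10 markers of differentiating spermatogonia the sums lay between 1258 and 1501 CPM in KO and between 1191 and 1491 CPM in WT animals. Over the 16 markers of undifferentiated spermatogonia they lay between 468 and 620 CPM in KO and between 466 and 657 CPM in WT animals. The median SD of log2 CPM within groups was 0.307 for undifferentiated and 0.207 for differentiating spermatogonial markers and 0.245 for 9 markers of germ cells in general. It was 0.475 for 34 other genes of meiotic prophase and 0.397 for the 18 tested of 25 markers of later spermatocytes and spermatids. Their median slopes on the 31 genes were -0.13, 0.12, 0.35, 0.73 and 0.23 in the order just given. Stra8, the retinoic acid target that starts meiosis, lay between 99.7 and 243 CPM in KO and between 70.3 and 190 CPM in WT animals. Meiosin (Gm4969 in the table), the partner of STRA8, lay between 17.98 and 130.1 CPM in KO and between 10.2 and 178 CPM in WT animals. That 17.4-fold range was wider than those of the 31 single genes except Meiob (66.2-fold).

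Sertoli cell markers had a median slope of -0.11 over 15 genes. Their summed level was 11393 CPM in T81 and 7688 CPM in T78, the animals with the lowest means of the 31 genes, and 8468 CPM in T98, so it was highest in T81 but lower in T78 than in T98. Amh, a Sertoli cell hormone that declines after birth, was at 635 CPM in T81, 388 CPM in T78 and 209 CPM in T98. Ddx4 was at 129, 202 and 252 CPM in the same animals. The part of these cells in the spread of the meiotic genes was not tested.

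**Figure D4:**
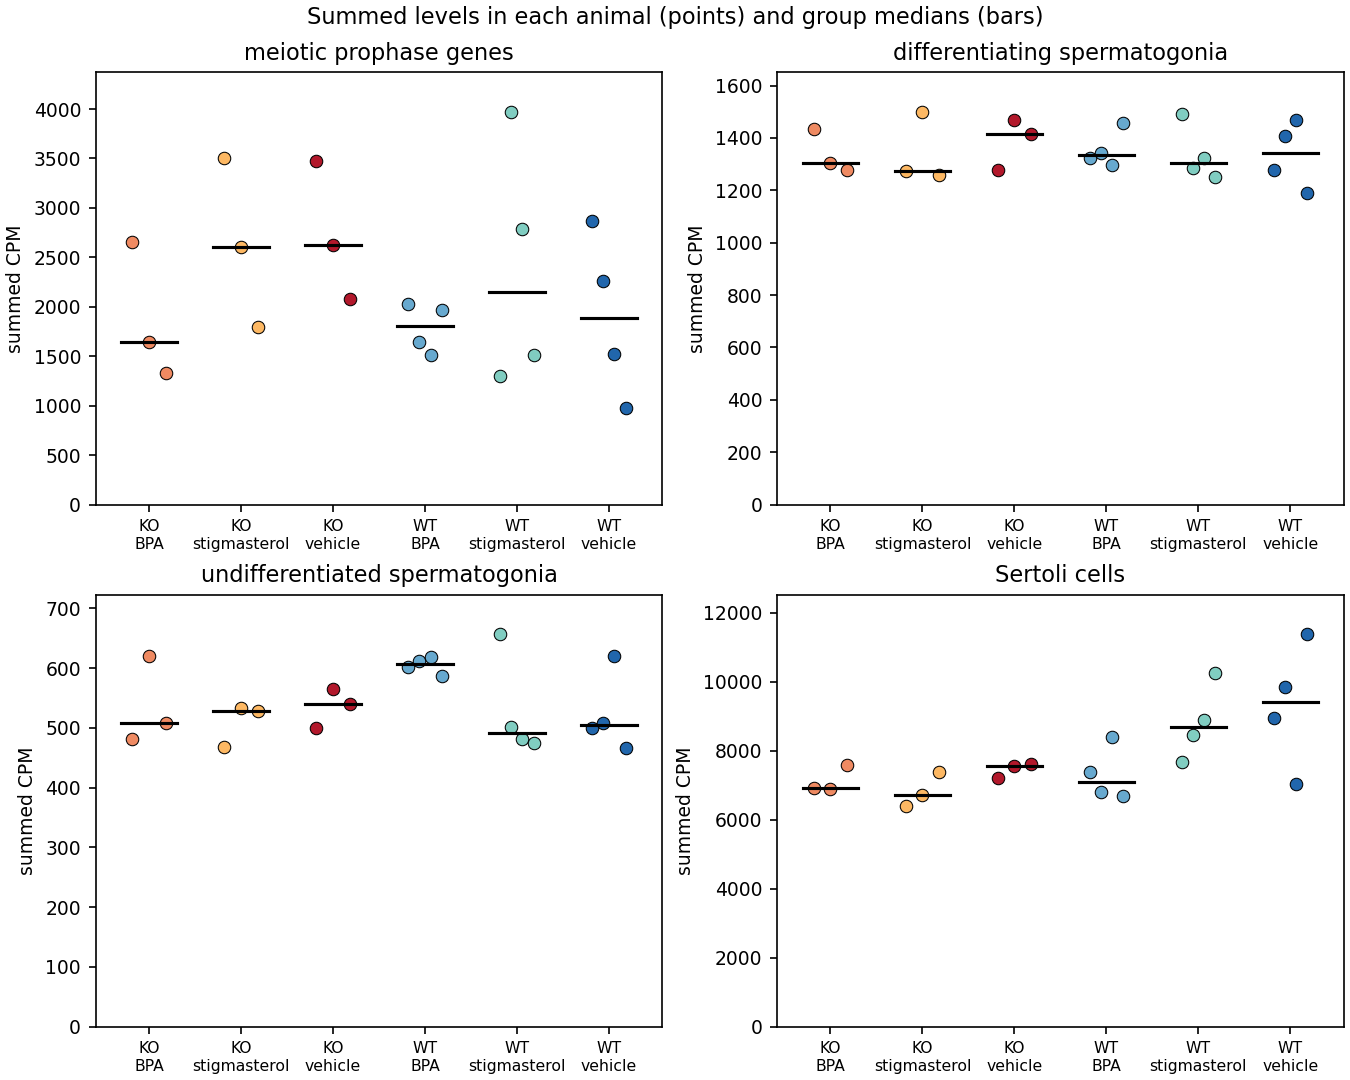
Summed CPM of 4 gene lists in each animal (points) with group medians (bars). The 31 meiotic prophase genes span 974 to 3975 CPM, whereas markers of differentiating spermatogonia stay between 1191 and 1501 CPM, undifferentiated ones between 466 and 657 CPM, and Sertoli cell markers reach 11393 CPM in WT vehicle animal T81.

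The genes outside the 31 that followed them most closely over the 21 animals, after subtraction of group means, were Zfp541, Poln, Zcwpw1, Ccdc79, Cep83, Gm960, Boll, AI481877, Gm364 and Fmr1nb, with Pearson correlations of 0.991 to 0.995 to the mean of the 31. Zfp541 lay between 7.11 and 66.3 CPM and Zcwpw1 between 60.03 and 197 CPM. Ccdc79 is the table's name for Terb1, which ties telomeres to the nuclear envelope in meiosis. In all 638 genes tested had a correlation of at least 0.9, 24 of them among the 31.

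The comparison of KO with WT vehicle animals sets the genotypes side by side without added treatment. With a mixed strain and litters not named, an effect of FXRα loss cannot be told apart from differences between litters or strain variants. Of the 31 genes 29 had a positive log2 fold change, as 52.4% of all genes tested did, and their median was 0.53, against 0.01 over all genes. This median was 0.23 without KO vehicle animal T1, 0.29 without WT vehicle animal T81 and 0.15 without the Cdh16 libraries. The last fit keeps T90 as its only KO vehicle animal. Most of the 31 genes moved together between animals, so here and in the comparisons below their signs are not separate observations. None of the 31 passed an adjusted p of 0.05 in edgeR, limma-voom or DESeq2, where 2.92% of all genes did in edgeR, and 5 had an unadjusted p under 0.05, where 20.9% of all genes did. The 5 were Psmc3ip, Tex14, Tex11, Tex15 and Mlh3 (0.13 ± 0.0623 SE, edgeR adjusted p = 0.227). KO and WT vehicle animals did not overlap for 3 genes (9.68% of the 31), all higher in KO. This was near the share over all genes, of which 8.25% were higher without overlap and 8.07% lower. These were Psmc3ip, Tex11 and Tex14. Tex11 had 142, 161 and 130 CPM in KO animals T1, T90 and T110, against 122, 115, 98.2 and 57.4 CPM in WT animals T66, T71, T79 and T81. Its log2 fold change was 0.56 ± 0.240 (SE, edgeR adjusted p = 0.197). Tex14 had 127, 134 and 129 CPM in the KO animals, against 105, 106, 107 and 61.3 CPM in the WT animals (0.45 ± 0.179, edgeR adjusted p = 0.158). Every KO value of both genes lay above every WT value, and T81 was the lowest for both.

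By role, the medians of the log2 fold changes between the vehicle groups were 0.43 for the synaptonemal complex, 0.59 for axis and cohesin, 0.55 for breaks, 0.64 for strand exchange, 0.56 for crossover and checkpoint and 0.44 for germ cell factors. The exceptions in sign were Rec8 (-0.46, adjusted p = 0.427) and Mnd1 (-0.07, adjusted p = 0.851). Meiob had the largest fold change and the largest error (1.38 ± 1.02 SE, edgeR adjusted p = 0.455), and Tex15 had 0.80 ± 0.365 (adjusted p = 0.221). The list of 34 other meiotic prophase genes had 34 positive values with a median of 0.48 and 0 passing, 6 of them with an unadjusted p under 0.05. In the same comparison 4 of 15 Sertoli cell markers fell (Sox9, Rhox8, Dhh and Nr5a1) and 1 of the 10 tested markers of epididymis and efferent duct, Epcam, rose. So did 2 of 16 markers of undifferentiated spermatogonia and 1 of the 18 tested markers of later spermatocytes and spermatids. Over all genes 2.92% passed. The part of those cells in the result was not tested.

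In BPA-treated animals 25 of the 31 genes had a positive log2 fold change, KO over WT, as 51.9% of all genes did, with a median of 0.23. By edgeR 0 passed (0.859% of all genes did), 1 of the 31 had an unadjusted p under 0.05 (8.16% of all genes did), and limma-voom and DESeq2 called 0. Psmc3ip was the only 1 of the 31 without overlap, on the higher side (5.12% of all genes were there, and 5.24% on the lower side). In stigmasterol-treated animals 24 were positive (53.8% of all genes were) with a median of 0.27. By edgeR 0 passed (7.21% of all genes did), 0 of the 31 had an unadjusted p under 0.05 (21.3% of all genes did), and limma-voom and DESeq2 called 0. After Psmc3ip, the smallest p were those of Meiob (1.26 ± 1.06) and Rec8 (-0.27 ± 0.322) in BPA animals, with edgeR adjusted p of 0.91 and 0.971. In stigmasterol animals they were those of Mnd1 (0.28 ± 0.161) and Syce1 (0.46 ± 0.312), with edgeR adjusted p of 0.341 and 0.438. The sign of the medians in BPA and in stigmasterol animals rested on single animals. Without KO BPA animal T25 the BPA median was -0.27, without the Alb or Car3 libraries it was -0.25, and without KO stigmasterol animal T10 the stigmasterol median was -0.04. Leaving out the Alb or Car3 libraries keeps T83 as the only KO BPA animal.

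Averaged over the 3 treatments, 29 of the 31 had a positive log2 fold change (53.3% of all genes did) with a median of 0.34, which was 0.17 without KO BPA animal T25 and 0.17 without the Alb or Car3 libraries. Psmc3ip alone passed, 1 of 31 (3.23%), where 13.9% of all genes passed and 6.85% of all genes passed as higher. With 1 gene passing and most of the 31 moving together, this share is not a result about the 31 as a set. An unadjusted p under 0.05 was reached by 4 of the 31 and by 27.8% of all genes. The 4 were Psmc3ip, Stag3, Rec8 and Tex14. Psmc3ip had 21.7, 17.7 and 19.06 CPM in KO BPA, 21.6, 18.5 and 13.4 CPM in KO stigmasterol, and 18.8, 18.5 and 20.6 CPM in KO vehicle animals. It had 15.2, 12.3, 14.6 and 12.5 CPM in WT BPA, 13.8, 17.3, 14.2 and 11.5 CPM in WT stigmasterol, and 17.0, 14.6, 13.7 and 11.7 CPM in WT vehicle animals. All KO animals but T93 lay above all WT animals. The log2 fold change was 0.42 ± 0.0909 (SE, edgeR adjusted p = 0.00465), and 0.52 ± 0.157 in BPA (adjusted p = 0.203), 0.32 ± 0.158 in stigmasterol (adjusted p = 0.244) and 0.43 ± 0.157 in vehicle animals (adjusted p = 0.129). The groups held 58.2% of its variance, the most of the 31. Its level swung less than the others (slope 0.27), with a correlation to them of 0.758.

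The call of Psmc3ip held in each of the 21 fits that left out 1 animal (adjusted p = 0.00118 to 0.0135). It was lost without the 9 Cdh16 libraries named above (0.44, adjusted p = 0.167), which leaves 1 KO animal per treatment, and without the 4 Alb or Car3 libraries (0.34, adjusted p = 0.14). In the averaged comparison 8 of the 10 tested epididymis and efferent duct markers rose and 8 of 15 Sertoli cell markers fell. Of the 9 markers of fat, liver and blood 4 rose, as did 1 of 10 of differentiating spermatogonia and 1 of 6 of endothelial cells. Of the 18 tested markers of later spermatocytes and spermatids 3 rose and 1 fell. Among 16 markers of undifferentiated spermatogonia 2 rose and 1 fell. Over all genes 13.9% passed. The summed levels were 103 to 730 CPM in KO and 55.4 to 212 CPM in WT animals for epididymis and efferent duct, and 6388 to 7614 CPM in KO and 6703 to 11393 CPM in WT animals for Sertoli cells. The library kit did not keep the strand, and 385 bases at the 3′ end of Psmc3ip (chromosome 11, 101091823 to 101095436, minus strand, mm10) overlap Mlx, so reads there cannot be told apart. The log2 fold change of Mlx was -0.02 ± 0.0430 (adjusted p = 0.827). In all 11 of the 31 genes overlap another annotated gene, among them Sycp3, which lies within Chpt1 (-0.04, adjusted p = 0.47), and Syce2, which overlaps Gcdh (0.20, adjusted p = 0.0171).

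After Psmc3ip, the smallest p of the averaged comparison were those of Stag3 (0.42 ± 0.181, edgeR adjusted p = 0.14) and Rec8 (-0.39 ± 0.186, edgeR adjusted p = 0.174), followed by Tex14 (0.22 ± 0.103, edgeR adjusted p = 0.175). Stag3 averaged 273 ± 84.3, 355 ± 76.1 and 340.0 ± 28.5 CPM in KO BPA, stigmasterol and vehicle animals (SD, n = 3 each). It averaged 227 ± 32.5, 270 ± 128 and 226 ± 81.3 CPM in WT BPA, stigmasterol and vehicle animals (SD, n = 4 each). Stag3 and Rec8, both cohesin genes, thus had opposite signs, and neither passed. Without WT stigmasterol animal T98 Stag3 passed (0.52, adjusted p = 0.0398). Of the 34 other meiotic prophase genes 32 were positive (median 0.24) and Ccnb1ip1 (HEI10), needed for crossovers in the mouse, rose (0.52 ± 0.151, adjusted p = 0.0294).

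**Figure D5:**
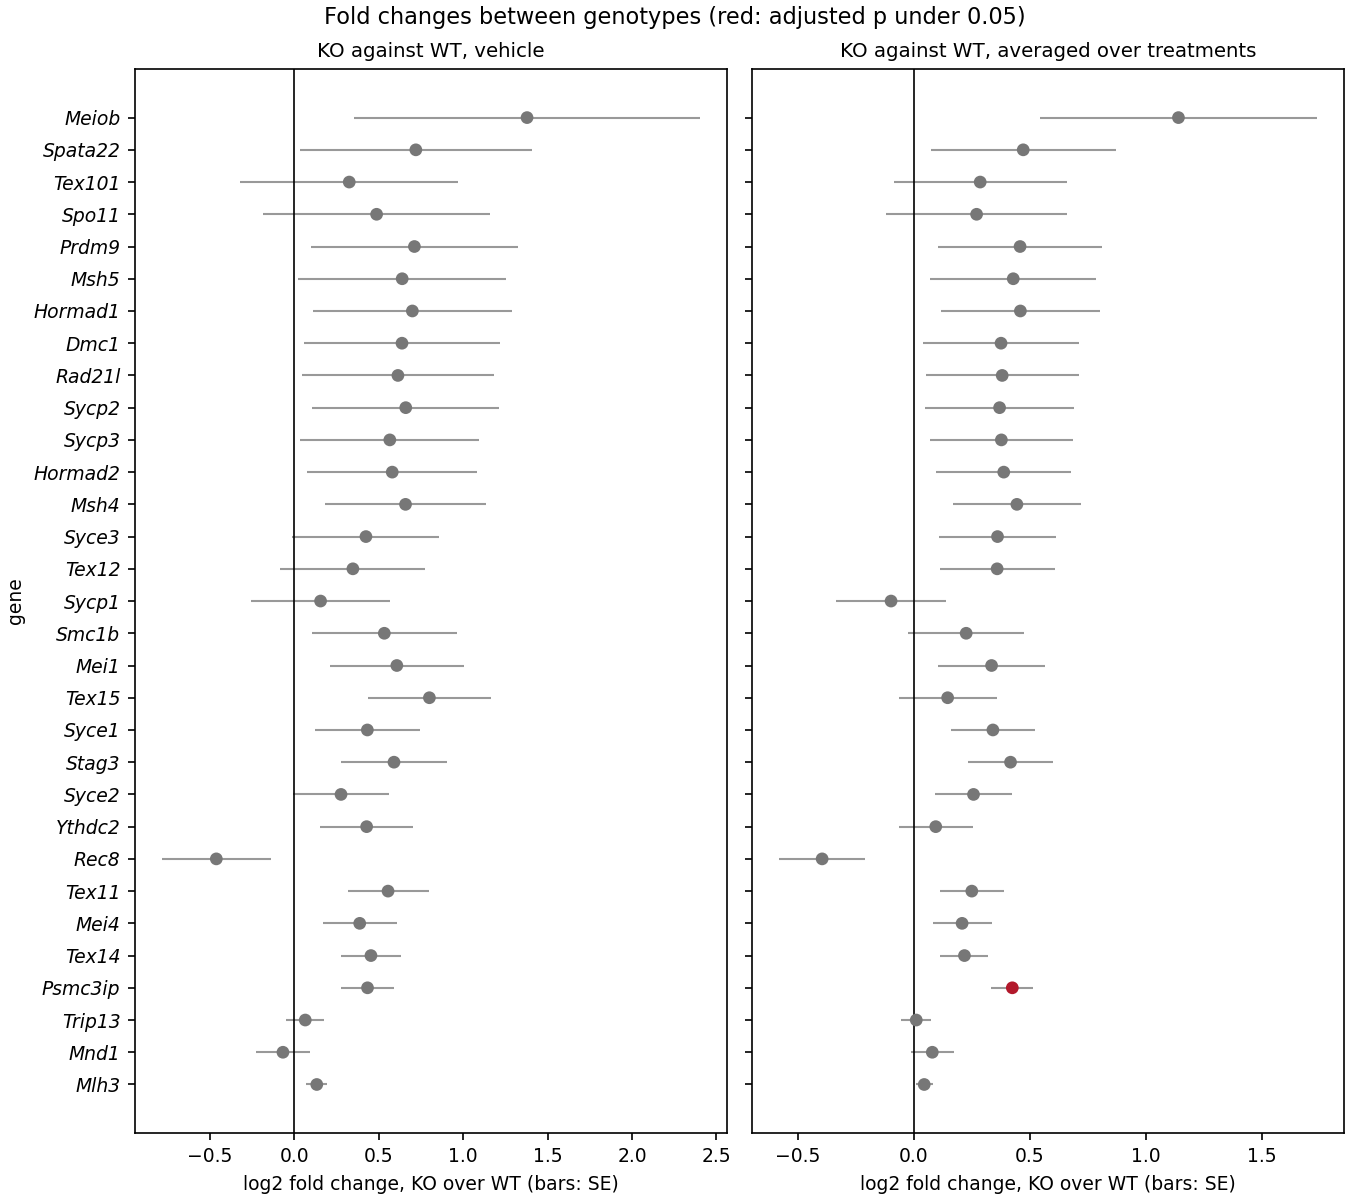
Log2 fold change, KO over WT, of each of the 31 genes in vehicle animals (left) and averaged over treatments (right), with SE as bars and genes ordered from the steepest to the flattest. In each panel 29 of 31 points lie right of 0, the bars are longest for Meiob at the top and shortest for Mlh3 at the bottom, and only Psmc3ip on the right (red) has an adjusted p under 0.05.

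The treatments were compared with vehicle within each genotype. Both treatments share the vehicle animals, and so do the interactions, so their values are not independent. In KO animals BPA gave 1 of 31 positive log2 fold changes (50.3% of all genes were positive, median of the 31 -0.53) with 0 passing (0.0148% of all genes in edgeR). That KO median was 0.17 without the Cdh16 libraries, -0.93 without the Alb or Car3 libraries, -1.0 without T25, -0.33 without T117 and -0.27 without T1. The fit without the Cdh16 libraries sets only T25 (BPA) against only T90 (vehicle) in KO animals. That without the Alb or Car3 libraries keeps T83 as its only KO BPA animal. In WT animals BPA gave 8 positive (52.2% of all genes, median of the 31 -0.26) with 0 passing (0% of all genes in edgeR, 1024 genes by DESeq2). The edgeR count of all genes ranged from 0 to 1321 with each animal left out, highest without WT vehicle animal T79 and above 0 also without WT BPA animals T60 and T74, with 0 of the 31 among them. Unadjusted p were under 0.05 for 1 of the 31 in KO and 0 in WT animals, where 4.31% and 18.8% of all genes were. The 1 was Tex15, with 374, 255 and 227 CPM in KO BPA animals, against 670.0, 526 and 339 CPM in KO vehicle animals (-0.84 ± 0.396 SE, edgeR adjusted p = 0.896), and the groups overlapped. In WT animals Tex15 had 365, 254, 402 and 334 CPM with BPA, against 432, 377, 218 and 147 CPM with vehicle. The next smallest p in KO animals were those of Ythdc2 (-0.52 ± 0.297) and Meiob (-1.61 ± 1.13), both with an edgeR adjusted p of 0.896. In WT animals the smallest were those of Tex14 (0.26 ± 0.166, adjusted p = 0.43), Meiob (-1.49 ± 1.00, adjusted p = 0.445) and Mlh3 (0.08 ± 0.0578, adjusted p = 0.477). The sign for Meiob in KO animals turned to 0.26 without the Cdh16 libraries.

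Stigmasterol gave 22 of 31 positive log2 fold changes in KO animals (51.8% of all genes were positive, median of the 31 0.04) with 0 passing (0% of all genes in edgeR). In WT animals 29 of 31 were positive (51.1% of all genes, median of the 31 0.31) with 0 passing (0.00494% of all genes in edgeR). None of the 31 had an unadjusted p under 0.05 in either genotype, where 3.85% of all genes did in KO and 8.26% in WT animals. The smallest p in KO animals were those of Tex15 (-0.39 ± 0.393), Mlh3 (-0.06 ± 0.0666) and Psmc3ip (-0.11 ± 0.169), all with an edgeR adjusted p of 1. In WT animals they were those of Mnd1 (-0.26 ± 0.15, adjusted p = 0.687), Mlh3 (0.10 ± 0.0578, adjusted p = 0.69) and Tex15 (0.52 ± 0.341, adjusted p = 0.732). The WT median was -0.12 without T98, and the KO median was -0.27 without T10, -0.14 without T110 and -0.04 without T90. That of BPA against vehicle in WT animals was 0.07 without WT vehicle animal T66. The interaction of genotype with BPA had a median of -0.30 with 5 of 31 positive (49.2% of all genes) and 0 passing (0.0148% of all genes). That with stigmasterol had a median of -0.30 with 5 positive (50.7% of all genes) and 0 passing (0.00987%). Unadjusted p were under 0.05 for 0 of the 31 in both interactions by edgeR, where 8.83% and 9.16% of all genes were. The smallest p of the BPA interaction were those of Tex15 (-1.05 ± 0.521, adjusted p = 0.567), Tex14 (-0.46 ± 0.254, adjusted p = 0.6) and Tex11 (-0.53 ± 0.341, adjusted p = 0.649). Those of the stigmasterol interaction were Tex15 (-0.91 ± 0.521, adjusted p = 0.629), Mlh3 (-0.15 ± 0.0882, adjusted p = 0.636) and Mnd1 (0.35 ± 0.229, adjusted p = 0.677). Tex15, with its highest group mean in KO vehicle animals, led both. Without KO vehicle animal T1 the medians were 0.02 and 0.03, without T98 that with stigmasterol was 0.16, and without the Cdh16 libraries they were 0.69 and 0.06. The fit without the Cdh16 libraries keeps only T25 (BPA), T15 (stigmasterol) and T90 (vehicle) of the KO animals. DESeq2 and limma-voom also called 0 of the 31 in each of these 6 comparisons. The authors' deposited table gave medians of the same 31 genes of -0.53 and -0.26 for BPA in KO and WT animals and of 0.04 and 0.31 for stigmasterol. In the authors' deposited table the smallest adjusted p of the 31 was 0.56, for BPA in WT animals.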

How the data were processed

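Per the labels' protocols, each testis sample gave 1 library of the TruSeq RNA kit; that kit does not record the strand. Per the submitters' processing notes, reads passed through TopHat2 2.0.10, Bowtie2 2.1.0, Bowtie and CASAVA 1.8.2 (listed without order) with mm10. Counter and annotation: not given in the sources used here. What the authors deposited was raw read counts per gene, which entered every test. Per the file headers the authors' normalized signal is those counts after scaling, found here to be the count divided by 1 size factor per library, and the other signal column divides this by a gene length. A table of log2 fold changes was deposited too, and the deposited p-values and adjusted p-values belong to the 4 comparisons of treatment with vehicle.

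The main test was that of edgeR 4.0.16 (R 4.3.3) on the counts (TMM, filterByExpr with a minimum count of 10 and a minimum total of 15, quasi-likelihood F test, 1 mean per group, all 21 animals, Benjamini-Hochberg over 20254 genes in each of 10 contrasts, threshold 0.05, two-sided); the biological coefficient of variation was 19.2%. SE is the log2 fold change over the square root of F. Alternatives were RLE scaling, no filter, limma-voom (limma 3.58.1), DESeq2 1.42.0, fits of the compared groups only, each animal left out, and libraries with Cdh16, or with Alb or Car3, at 10 CPM or more left out; the last was added after seeing the data. Exon lengths came from GENCODE M21 (GRCm38). The fit was checked on simulated counts. The members and lists were chosen with earlier results of these data known. Named in each comparison were the genes that passed, or the 3 smallest p; other genes named were chosen by role or after their values were seen.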

Additional observations from a re-analysis of the deposited data

Results flagged for a closer look

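In 93 tests of a gene within a WT group (31 genes in 3 groups of 4 animals), 1 animal stood apart. Tex14 was at 61.31 CPM in WT vehicle animal T81, while the other 3 animals of that group lay between 105.5 and 106.7 CPM, so that the gap to the nearest of them was 0.972 of the whole range. Chance alone flags about 1 in 20 such groups, and groups of 3 animals were not tested.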

How the results depend on the processing

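No paired analysis was possible because the numbers in the labels name animals and are not shared between groups. The count of meiotic prophase genes that passed was 0 in 9 of the 10 comparisons in edgeR and under every alternative run. In KO against WT averaged over treatments it was 1, and it was 0 without the Cdh16 libraries, 0 without the Alb or Car3 libraries, and 1 to 2 with each animal left out (2 without WT stigmasterol animal T98); the cause was not tested. Fitting the compared groups only does not apply to the averaged comparison. Without the Cdh16 libraries the log2 fold changes of Rec8 (KO against WT, BPA) and Meiob (BPA against vehicle, KO) turned to 0.12 and 0.26, and without the Alb or Car3 libraries that of Meiob (KO against WT, BPA) turned to -0.59. With each animal left out the last ranged from -0.21 to 1.66, and that of Psmc3ip (stigmasterol against vehicle, KO) from -0.27 to 0.049. None of these had passed. Medians over the 31 genes moved by more than 0.601, the SD of their mean between animals of a group, only without the Cdh16 libraries, to 0.17 (BPA against vehicle, KO), 0.89 (KO against WT, BPA) and 0.69 (BPA interaction). Leaving out the Cdh16 libraries keeps only T25, T15 and T90 of the KO animals. Leaving out the Alb or Car3 libraries keeps T83 as the only KO BPA animal. All-gene counts depended on the tool and libraries: 592 for KO against WT in vehicle animals, 1397 by DESeq2, 185 with these groups only, 56 without the Cdh16 libraries, and 2820, 3403 and 257 for the averaged comparison in edgeR, by DESeq2 and without the Cdh16 libraries. How large a difference these group sizes can detect was not measured for each gene. With each animal left out, medians over the 31 genes ranged from 0.23 to 0.78 in vehicle animals, KO against WT, and from 0.17 to 0.47 averaged over treatments.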
